A study of Mus musculus with 6 samples.

Results

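The proteasome is the large protease that degrades proteins tagged with ubiquitin. Its barrel-shaped core encloses the catalytic sites between rings of alpha and beta subunits, and a cap on either end recognizes the tagged protein, removes the ubiquitin and drives the unfolded chain into the core by ATP hydrolysis. Under interferon, immune subunits take the place of the constitutive catalytic subunits, which alters the peptides available to major histocompatibility complex (MHC) class I molecules, and blood cells carry much of this form. O-GlcNAc, the single sugar that the O-GlcNAcase OGA removes from nuclear and cytoplasmic proteins, is known to modify an ATPase of the cap and to inhibit the proteasome.

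The 48 genes described here were chosen by symbol, as every locus whose name is Psm followed by a letter from a to g and a number, and they were taken out of 53445 loci in a table of RNA-Seq reads per locus. The pattern matched 51 loci, because Psmd11 is listed at 3 places and Psmf1 at 2, and the longest was kept for each. By role the genes comprise 15 core subunits, 17 cap subunits, 3 immune catalytic subunits, 1 thymic catalytic subunit, 5 other activators or inhibitors and 7 assembly chaperones. The levels of 47 of the 48 were high enough for a test. The exception was Psmb11, the catalytic subunit of thymic epithelium, with counts of 1, 6 and 2 in the OgaVav-Cre libraries and of 3, 0 and 1 in the wildtype libraries, listed here and elsewhere in the order of replicates 1, 2 and 3.

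The libraries came from Lin-Sca+Kit+ (LSK) bone marrow cells, which hold the hematopoietic stem cells and early progenitors, of C57BL/6 female mice aged about 12 weeks. Each of 3 OgaVav-Cre and 3 wildtype mice gave 1 library of poly(A) RNA from at least 20000 sorted cells. OgaVav-Cre mice carry floxed Oga alleles and Vav-iCre, a transgene that is active across the blood lineages, so that the deletion is not particular to LSK cells. Whether the wildtype mice carried floxed alleles or the transgene is not stated for these libraries. The counts summed to between 19318056 and 27064389 reads per library. Oga, listed under its older symbol Mgea5, was at 3.09% of its wildtype level, with counts of 104, 109 and 110 against 3164, 2970 and 2736. All 10 LSK marker genes were detected, and their summed level ranged from 1190 to 2500 CPM in OgaVav-Cre and from 1580 to 2740 CPM in wildtype libraries, where CPM is the count after TMM scaling of the libraries in edgeR. Transcripts that mark other cells were detected as well. The summed level of 11 plasma cell markers ranged from 12200 to 113000 CPM in OgaVav-Cre and from 13000 to 56200 CPM in wildtype libraries, and that of 12 lineage-positive markers from 236 to 1410 CPM and from 280 to 678 CPM, and the part of lineage-positive RNA in the values below was not tested. All 11 plasma cell markers had log2 fold changes above 0 for OgaVav-Cre over wildtype, and in none did the genotypes separate. In such bulk samples, fewer cells of a type cannot be told apart from less RNA per cell.

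On the median, proteasome subunit genes were slightly higher in OgaVav-Cre than in wildtype LSK cells by every scaling tried, and none passed the test. The log2 fold change of OgaVav-Cre over wildtype was above 0 for 43 of the 47 genes tested, against 50.5% of all 22032 loci tested, and for 39 of the 47 when the RPKM values were analyzed instead, against 41.8 and 41.9% of all loci with a pseudocount of 0.1 and 1. The median log2 fold change was 0.21, beside 0.0041 over all loci, and single genes ranged from -0.14 for Psmg2 to 0.55 for Psmb10. The study's cutoffs were a log2 fold change beyond 1 in either direction and an adjusted p under 0.05, at which edgeR's quasi-likelihood test called 0 of the 47 genes, beside 0.0318% of all loci. DESeq2's Wald test also called 0, beside 0.517% of all loci. In edgeR, the p-values of the 47 genes after Benjamini-Hochberg adjustment across all loci tested were between 0.299 and 0.957.

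Without correction for the number of loci, 9 genes had an edgeR p below 0.05 and were higher in OgaVav-Cre, beside 4.38% of all loci. DESeq2 put 10 genes there, beside 4.86% of all loci. By edgeR, 0 genes had a p below 0.05 and were lower, beside 6.27% of all loci. The 9 were Psmb10, Psmc3, Psmb4, Psmb5, Psmd4, Psmb7, Psmb8, Psme1 and Psme2, which include 2 of the 3 immune and 2 of the 3 constitutive catalytic subunits. In 11 genes the lowest OgaVav-Cre library exceeded the highest wildtype library, beside 7.5% of all loci, and in 0 genes the order was the opposite, beside 9.97%. These shares describe the list, whose members form, regulate or assemble the proteasome and are not independent. The p-values set the difference between the genotypes against the variation between mice of a genotype. That variation was estimated from these 6 mice with information shared across loci.

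**Figure D1:**
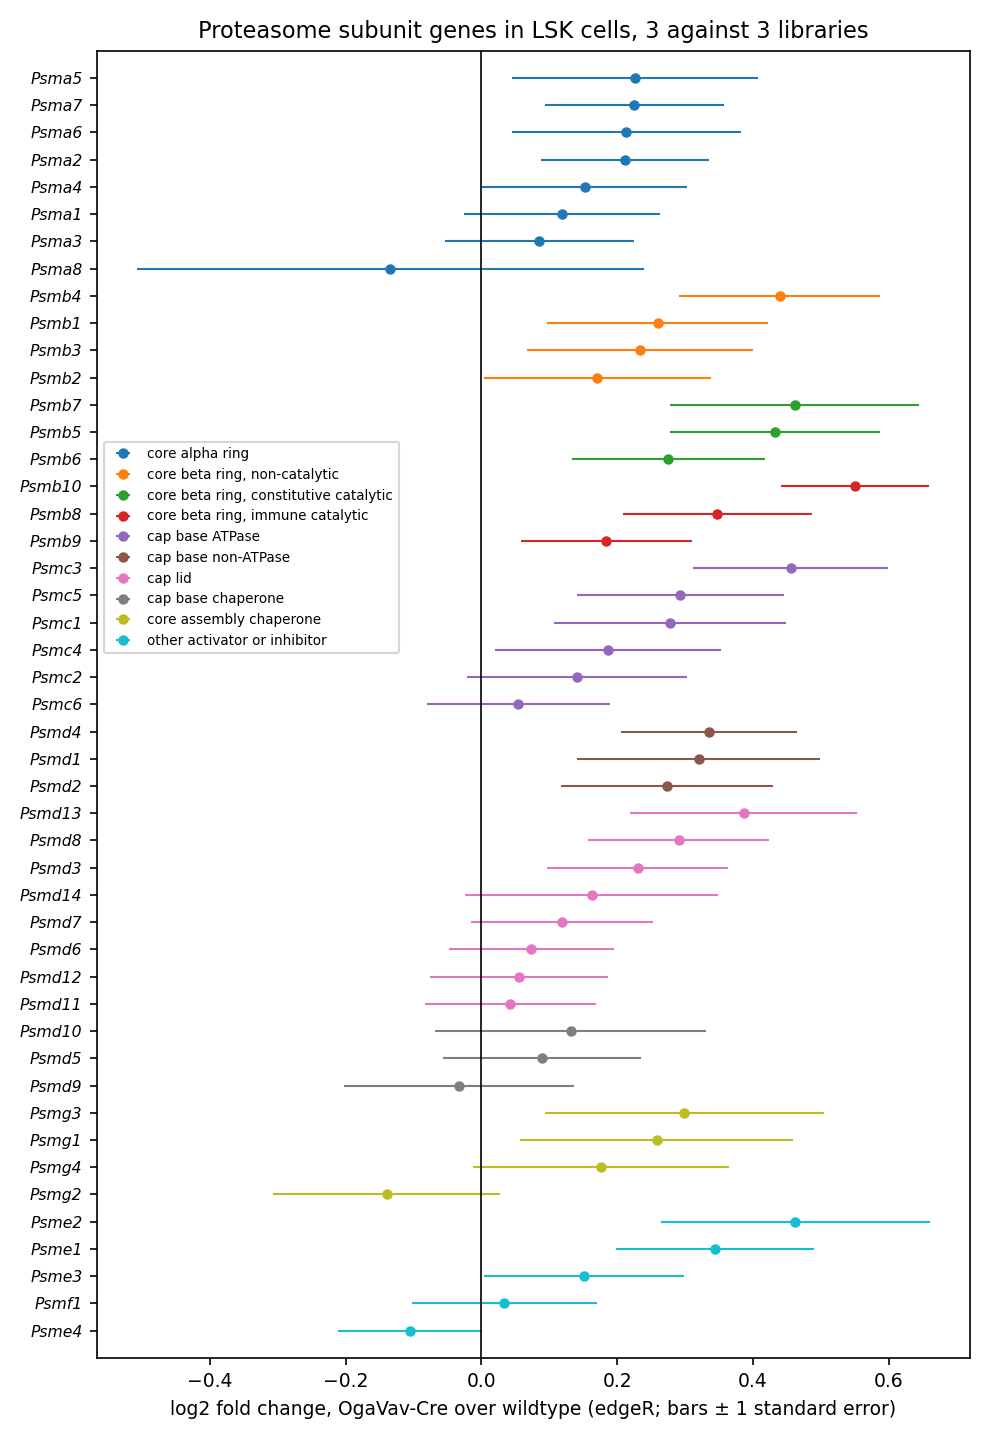
Log2 fold change of OgaVav-Cre over wildtype for the 47 proteasome subunit genes tested, from edgeR, colored by role; bars show 1 standard error to either side and the vertical line marks no difference. Of the 47 points, 43 lie to the right of the line, and Psmb10 lies farthest, at 0.55.

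The wildtype libraries differed more among themselves than the genotypes did on the median. As the median over the 47 genes, the log2 deviation from the mean of all libraries was 0.10, 0.19 and 0.05 in OgaVav-Cre replicates 1, 2 and 3. It was 0.12 in wildtype replicate 1, -0.17 in replicate 2 and -0.30 in replicate 3. Wildtype replicate 1 therefore lay among the OgaVav-Cre libraries, and the other wildtype libraries lay below all of them. It was the highest wildtype library for 40 of the 47 genes, whereas wildtype replicate 3 was the lowest for 34. In 34 genes all OgaVav-Cre libraries exceeded both wildtype replicates 2 and 3. This count leaves out wildtype replicate 1, the wildtype library nearest to the OgaVav-Cre libraries, which makes it larger. With all wildtype libraries it was 11, beside 7.5% of all loci. For the other counts of genes in this paragraph the shares over all loci were not computed. Over all 21744 loci with a read in every library, the same medians stayed between -0.0039 and 0.0229.

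The number of genes with a small p depended on which library was left out. Leaving out wildtype replicate 1 raised the number with an edgeR p below 0.05 from 9 to 22, beside 7.4% of all loci, and the median log2 fold change to 0.34. Leaving out wildtype replicate 3 lowered the number to 1, beside 2.19% of all loci, and the median to 0.13. Without OgaVav-Cre replicate 1, 2 or 3 the number was 5, 2 and 8, beside 2.43, 3.2 and 6.2% of all loci. Without wildtype replicate 2 it was 3, beside 3.62% of all loci. None of these fits gave an adjusted p below 0.05 for any of the genes. Plasma cell transcripts also varied, since the share of reads on Ighm, Igkc and Igj was 9.88, 4.14 and 1.17% in the OgaVav-Cre libraries against 2.05, 5.48 and 1.36% in the wildtype libraries. With that share as a covariate, the median log2 fold change of the 47 genes was 0.21 and 6 of them were higher with a p below 0.05, beside 3.39% of all loci.

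**Figure D2:**
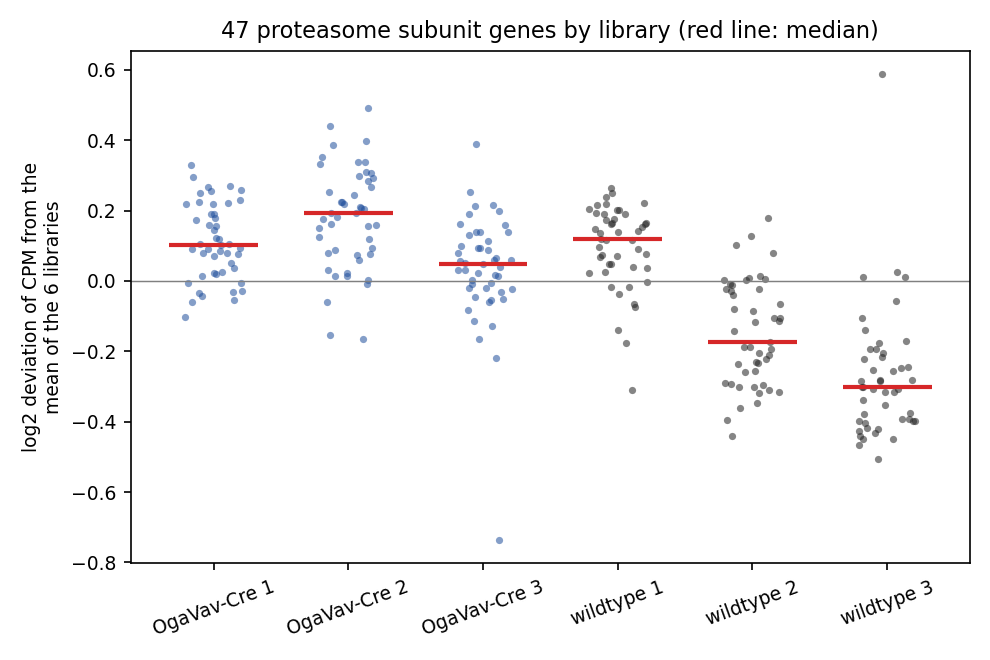
Each point is 1 of the 47 genes in 1 library, and the vertical axis gives the log2 deviation of its CPM from the mean of the 6 libraries; the red line marks the median. The medians are 0.10, 0.19 and 0.05 in the OgaVav-Cre libraries and 0.12, -0.17 and -0.30 in wildtype replicates 1, 2 and 3.

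As a share of all reads, the 48 genes held 0.276, 0.308 and 0.298% in the OgaVav-Cre libraries against 0.314, 0.251 and 0.251% in the wildtype libraries. The groups overlapped on this scale, where wildtype replicate 1 was the highest of all. Summed over the genes tested and scaled by TMM, they reached 3068 ± 121.6 CPM (SD, n = 3) in the mutant and 2615 ± 371.9 CPM (SD, n = 3) in the wildtype libraries, a ratio of 1.17. The wildtype libraries spread over a wider range than the OgaVav-Cre libraries in this sum. The ratio of the summed CPM was 1.26 for the immune catalytic subunits, 1.19 for the core, 1.17 for the cap, 1.11 for the other activators and the inhibitor and 1.06 for the assembly chaperones. Over all tested loci with a read in every library the same ratio was 1.09. That sum includes the immunoglobulin loci and does not give the level of a typical locus. By median log2 fold change the assembly chaperones were at 0.13, beside 0.0041 over all loci.

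Levels of different genes were compared as the deposited RPKM, in which the reads of a locus are divided by its length and by a library total. In wildtype cells the median over the 47 genes was 15.9 RPKM. Psmb1, a non-catalytic beta subunit, was the highest at 71.9 ± 13.8 RPKM (SD, n = 3), followed by Psme1, a subunit of the interferon-inducible activator, at 70.0 ± 8.14 RPKM. These 2 levels did not differ beyond their spread. The lowest were Psmd9, a chaperone of the cap base, at 2.28 ± 0.31 RPKM and Psme4, a nuclear activator, at 2.80 ± 0.04 RPKM. Psma8, the alpha subunit known from testis, was at 3.06 ± 1.08 RPKM. RPKM depends on the length listed for a locus, which is 21743 bases for Psme4, 6990 for Psmd9 and 1058 for Psmb1, and the subunits that form the core in equal number are not equal on this scale. The alpha subunits Psma1 to Psma7 ranged from 8.93 RPKM for Psma2 to 57.8 RPKM for Psma6.

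**Figure D3:**
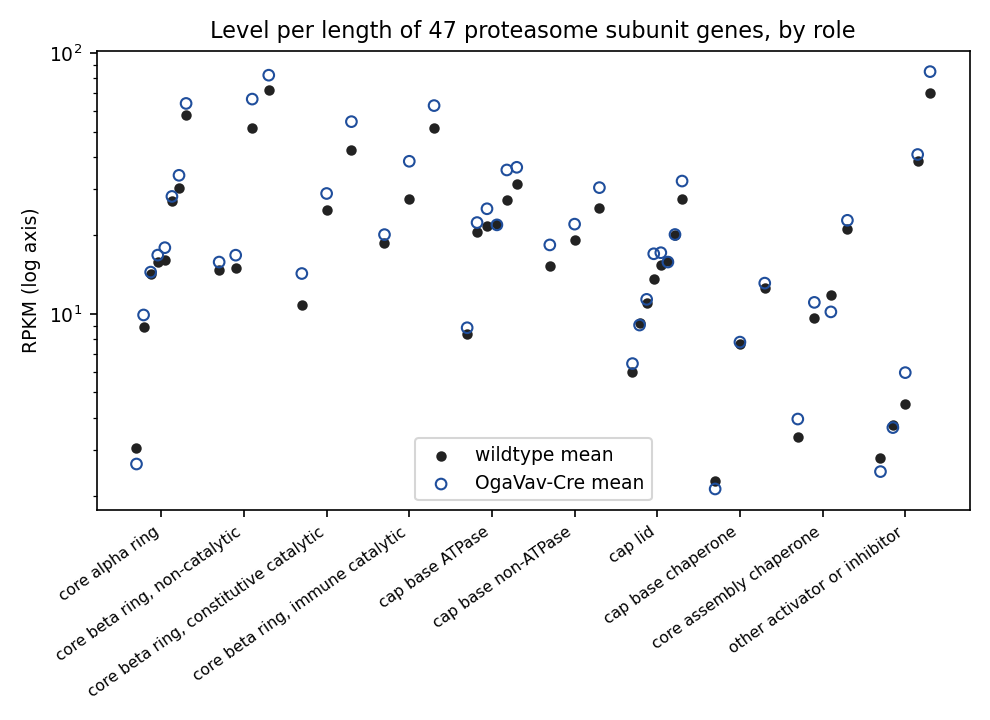
Mean RPKM of the 47 genes tested, on a log axis, grouped by role; filled points are wildtype means and open circles OgaVav-Cre means of 3 libraries each. In the alpha ring the wildtype means run from 3.06 to 57.8 RPKM, and the shift between genotypes is small beside that range.

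The catalytic subunits come in pairs, because each immune subunit takes the place of a constitutive one. Psmb5 carries the chymotrypsin-like site and is replaced by Psmb8, Psmb6 the caspase-like site, replaced by Psmb9, and Psmb7 the trypsin-like site, replaced by Psmb10. All 6 had log2 fold changes above 0, with a median of 0.43 for the constitutive and 0.35 for the immune subunits.

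Psmb10, which mm9 places on chromosome 8 between 108459628 and 108462292 (minus strand), had the smallest p of the proteasome subunit genes. Its level was 64.8, 62.9 and 59.8 CPM in the OgaVav-Cre libraries against 45.6, 40.6 and 41.8 CPM in the wildtype libraries. The groups did not overlap, and the gap between them was wider than the range within either. By edgeR, the log2 fold change came to 0.55 ± 0.11 (SE; adjusted p = 0.299), or 1.46-fold, and it lay between 0.52 and 0.60 with any 1 library left out. DESeq2's Wald test gave 0.56 and an adjusted p of 0.0243, so that the gene missed the fold change cutoff alone. It was the only proteasome subunit gene with an adjusted p below 0.05 in that test, beside 0.989% of all loci. Psmb10 overlaps Gm16156, a locus on the opposite strand, and whether its reads were counted by strand is not stated.

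Psmb8 and Psmb9 lie in the MHC region of chromosome 17, from 34335140 to 34338399 on the plus strand and from 34318932 to 34324697 on the minus strand. Psmb8, the immune subunit with the highest RPKM, was at 165, 183 and 159 CPM in the OgaVav-Cre libraries against 154, 122 and 123 CPM in the wildtype libraries. The groups did not overlap, although wildtype replicate 1 came close to OgaVav-Cre replicate 3. edgeR placed the log2 fold change at 0.35 ± 0.14 (SE), with an adjusted p of 0.453. Psmb9 was at 96.9, 84.5 and 78.5 CPM and 83.4, 73.5 and 72.0 CPM, so that the groups overlapped. Here the log2 fold change was 0.18 ± 0.13 (SE) by edgeR, where the adjusted p was 0.608. Psmb9 overlaps Tap1, the peptide transporter gene on the opposite strand, and the counting is not stated to use strand.

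Among the constitutive subunits, Psmb5 was at 59.0, 61.9 and 50.7 CPM in the OgaVav-Cre libraries against 50.6, 39.3 and 37.2 CPM in the wildtype libraries. OgaVav-Cre replicate 3 and wildtype replicate 1 lay next to each other, at the edge of an overlap. By edgeR, the log2 fold change came to 0.43 ± 0.15 (SE; adjusted p = 0.432). Psmb7 was at 51.2, 63.0 and 57.5 CPM and 53.1, 35.5 and 36.0 CPM, where wildtype replicate 1 exceeded OgaVav-Cre replicate 1 and the groups overlapped. This gave a log2 fold change of 0.46 ± 0.18 (SE) and an edgeR adjusted p of 0.449. Psmb6 was at 62.1, 69.6 and 60.3 CPM and 57.2, 57.5 and 44.0 CPM, without overlap, and edgeR gave 0.28 on the log2 scale (adjusted p = 0.523).

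**Figure D4:**
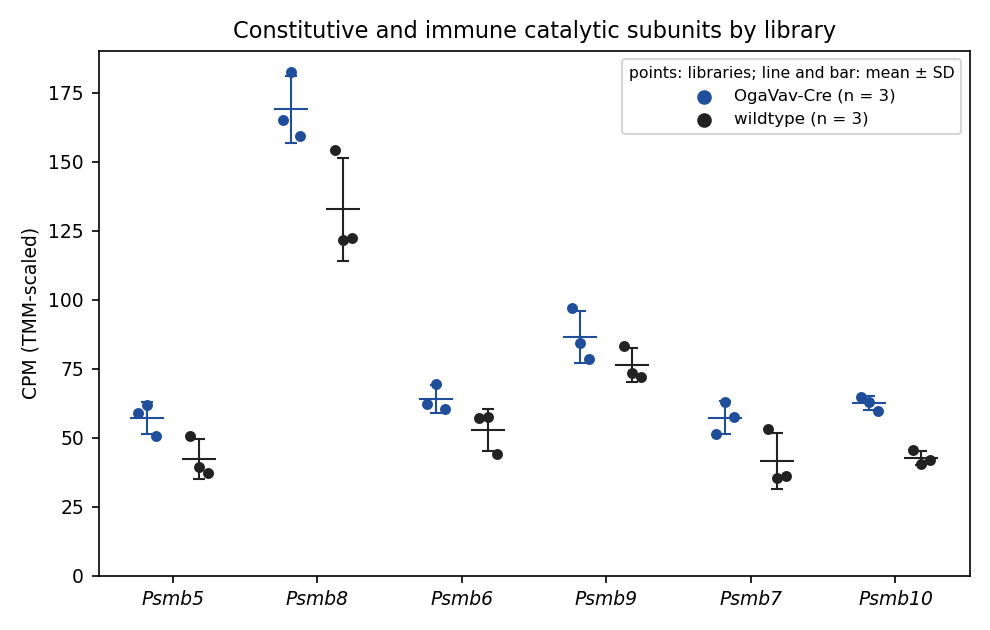
CPM of the constitutive subunits Psmb5, Psmb6 and Psmb7, each beside the immune subunit that replaces it; points are libraries, with OgaVav-Cre in blue and wildtype in black, and lines and bars give the mean and SD of 3 libraries. For Psmb10 the OgaVav-Cre libraries lie between 59.8 and 64.8 CPM and the wildtype libraries between 40.6 and 45.6 CPM.

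The balance of the immune and the constitutive form was compared as the ratio of the reads per kilobase of each pair. This ratio does not depend on the scaling of the library. It does depend on the listed lengths, such as 1381 bases for Psmb10 and 3421 for Psmb7. The order of the 3 pairs therefore does not show where the immune form prevails. Psmb8 over Psmb5 was 1.09, 1.15 and 1.22 in the OgaVav-Cre libraries against 1.19, 1.20 and 1.28 in the wildtype libraries. The mean log2 ratio was 0.20 ± 0.08 (SD, n = 3) and 0.29 ± 0.06 (SD, n = 3), with an exact two-sided permutation p of 0.3. Psmb9 over Psmb6 was 0.805, 0.626 and 0.672 against 0.752, 0.659 and 0.844, with an exact permutation p of 0.6. Psmb10 over Psmb7 was 3.14, 2.47 and 2.58 against 2.13, 2.83 and 2.88, with an exact permutation p of 0.8. The genotypes overlapped in all 3 ratios. The smallest p that 3 mice against 3 can give is 0.1, and after Benjamini-Hochberg adjustment over the 3 pairs each permutation p was 0.8. The difference in mean log2 ratio, OgaVav-Cre minus wildtype, was -0.09, -0.10 and 0.07 for the 3 pairs in that order.

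**Figure D5:**
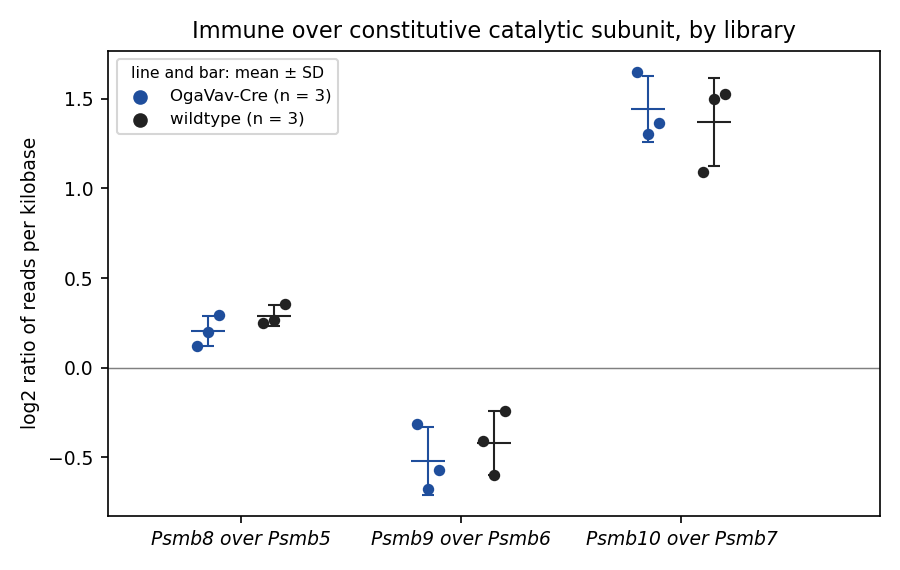
Log2 of the reads per kilobase of the immune over the constitutive subunit for each of the 3 pairs; points are libraries and lines and bars give the mean and SD of 3 libraries per genotype. The genotypes overlap in each pair. Psmb10 over Psmb7 is the highest in both, with means of 1.44 and 1.37, but the order of the pairs depends on the listed lengths.

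The remaining core subunits form the gate and the scaffold. All 4 non-catalytic beta subunits had log2 fold changes above 0, with a median of 0.25. Psmb4 had the smallest p among them, at 110.7, 118 and 96.5 CPM in the OgaVav-Cre libraries against 94.3, 75.2 and 70.5 CPM in the wildtype libraries. The groups were separated only by the small gap between OgaVav-Cre replicate 3 and wildtype replicate 1. edgeR placed the log2 fold change at 0.44 ± 0.15 (SE), with an adjusted p of 0.416. Psmb1 also did not overlap, with a log2 fold change of 0.26 and an adjusted p of 0.582 from edgeR.

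In the alpha ring, which opens and closes the entry to the core, 7 of 8 genes had log2 fold changes above 0, with a median of 0.18. The smallest p belonged to Psma7, at 119, 132 and 117 CPM in the OgaVav-Cre libraries against 116, 108 and 90.8 CPM in the wildtype libraries. The groups lay side by side without overlap, and edgeR gave 0.23 ± 0.13 (SE) on the log2 scale (adjusted p = 0.558). Psma6, the alpha subunit with the highest RPKM, had a log2 fold change of 0.21 and overlapped. Psma8 was low and uneven, at 5.32, 7.52 and 3.21 CPM and 4.31, 5.24 and 8.04 CPM. Its log2 fold change of -0.13 ± 0.37 (SE) had the widest error of the 47, and its sign turned without OgaVav-Cre replicate 3 or wildtype replicate 3, to 0.13 and 0.16.

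All 17 cap subunits had log2 fold changes above 0, with a median of 0.23 and a range from 0.04 to 0.46, although Psmc6, Psmd11 and Psmd12 were lower in OgaVav-Cre by mean RPKM. With 1 library left out, the lowest log2 fold changes of these 3 were -0.03, -0.05 and -0.05. The base of the cap holds 6 ATPases, Psmc1 to Psmc6, which unfold the substrate. Psmc3 was at 114, 117 and 97.3 CPM in the OgaVav-Cre libraries against 92.8, 76.1 and 70.6 CPM in the wildtype libraries. The groups did not overlap, and edgeR placed the log2 fold change at 0.46 ± 0.14 (SE; adjusted p = 0.412). Psmc1 was the most abundant ATPase by RPKM, and wildtype replicate 1, at 71.6 CPM, was above all OgaVav-Cre libraries, which were at 66.8, 71.4 and 66.5 CPM.

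Psmd4, a ubiquitin receptor of the base, was at 66.2, 63.6 and 62.6 CPM in the OgaVav-Cre libraries against 56.3, 43.3 and 52.9 CPM in the wildtype libraries. The groups did not overlap, and here wildtype replicate 2 was the lowest. By edgeR, the log2 fold change came to 0.34 ± 0.13 (SE; adjusted p = 0.445). Psmd1, a large scaffold subunit of the base, had a log2 fold change of 0.32 and overlapped between the genotypes.

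The lid, which carries the deubiquitinase Psmd14, had 8 of 8 genes above 0 and a lower median than the base, at 0.14. Psmd13 was at 69.8, 68.3 and 68.6 CPM in the OgaVav-Cre libraries against 66.8, 46.5 and 44.7 CPM in the wildtype libraries. The groups did not overlap, yet wildtype replicate 1 was close to the OgaVav-Cre libraries and far from the other wildtype libraries. This gave a log2 fold change of 0.39 ± 0.17 (SE) and an edgeR adjusted p of 0.471. Psmd8, the lid subunit with the highest RPKM, had a log2 fold change of 0.29, and Psmd14 had 0.16.

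Of all roles, the 3 chaperones of the cap base had the median log2 fold change nearest to 0, with 0.09 for Psmd5, -0.03 for Psmd9 and 0.13 for Psmd10. Of the 4 core assembly chaperones, Psmg3 had 0.30, Psmg1 0.26, Psmg4 0.18 and Psmg2 -0.14. Psmg3 was at 14.1, 14.3 and 14.1 CPM in the OgaVav-Cre libraries against 14.7, 10.6 and 9.26 CPM in the wildtype libraries, so that wildtype replicate 1 was the highest of the 6.

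Psme1 and Psme2 together form the interferon-inducible activator ring and lie close to each other on chromosome 14, from 56197288 to 56200373 on the plus strand and from 56206266 to 56209950 on the minus strand. They were both among the genes with an uncorrected p below 0.05. Psme1 was at 108, 114 and 92.1 CPM in the OgaVav-Cre libraries against 84.0, 93.3 and 70.2 CPM in the wildtype libraries. The groups overlapped, since wildtype replicate 2 was above OgaVav-Cre replicate 3. edgeR placed the log2 fold change at 0.34 ± 0.15 (SE), with an adjusted p of 0.468. Psme2 was at 10.2, 13.2 and 13.7 CPM and 9.93, 9.18 and 7.78 CPM, without overlap but with wildtype replicate 1 next to OgaVav-Cre replicate 1. By edgeR, the log2 fold change came to 0.46 ± 0.20 (SE; adjusted p = 0.468). Psme2 was at 4.49 RPKM in wildtype cells against 70.0 RPKM for its partner Psme1, and how reads that match more than 1 copy of a gene were counted is not stated.

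The other regulators were closer to 0. Psme3, which forms a nuclear activator ring, had a log2 fold change of 0.15, and Psmf1, an inhibitor of the core, had 0.03, which was -0.03 with RPKM and a pseudocount of 0.1. Psme4 was at 66.9, 58.7 and 64.9 CPM in the OgaVav-Cre libraries against 69.1, 69.5 and 66.4 CPM in the wildtype libraries. OgaVav-Cre replicate 1 overlapped the narrow wildtype range, and edgeR placed the log2 fold change at -0.11 ± 0.11 (SE; adjusted p = 0.731).

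Promoter windows of the genes were searched for short motifs of factors known to act on proteasome or immune genes. RefSeq sequences from 250 bases before to 50 bases after the start were searched for 40 of the 48 genes, as 43 promoters. Each had 1 exact match in mm9, whose coordinates are given. The other genes, Psma8 and Psmg2 among them, were left out of the search. The set of all promoters used for comparison was not restricted in the same way. Both strands were searched, TTCNNNGAA and CACGTG read alike on both, and 0 pairs of hits of different motifs in the same window shared a base. The ETS core CCGGAAG was in 34.9% of the 43 promoters and in 8.86% of all 32851 promoters in the table. The core of the interferon-stimulated response element, GAAA repeated after a gap of 2 bases, was in 11.6% and 3.44%, and the antioxidant response element core TGACNNNGC, which Nrf1 binds, in 14.0% and 12.4%. The gamma-activated site core TTCNNNGAA was in 6.98% and 8.30%, the E box CACGTG in 9.30% and 7.15% and the CCAAT box in 32.6% and 37.4%. A match of these letters is no measure of binding.

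The 5 windows below belong to genes with an uncorrected p below 0.05 that hold at least 1 of the motifs, which is in capitals. Psmb4 and Psme2, also at such a p, had windows with 0 hits, and Psmb7 and Psmc3 had no window. The median log2 fold change of genes with a motif ran from 0.06 for TGACNNNGC to 0.27 for TTCNNNGAA, beside 0.21 for all 47. A link between motif and level was not tested. Psmb5 holds TGACGTCGC, a TGACNNNGC match 47 bases before the start. Psmb8 holds the TTCNNNGAA match TTCCCAGAA, 97 bases before the start, and Psmb10 a CACGTG, 116 bases before it. Psme1 holds TTTCGCTTTC, a reverse match of the interferon-stimulated element inside the transcribed part. Psmd4 holds 5 hits, with a CCGGAAG, a reverse match of the interferon-stimulated element, TTTCCATTTC, and CCAAT on both strands.
Psmb5 (mm9 chr14:55236783-55237082, minus strand): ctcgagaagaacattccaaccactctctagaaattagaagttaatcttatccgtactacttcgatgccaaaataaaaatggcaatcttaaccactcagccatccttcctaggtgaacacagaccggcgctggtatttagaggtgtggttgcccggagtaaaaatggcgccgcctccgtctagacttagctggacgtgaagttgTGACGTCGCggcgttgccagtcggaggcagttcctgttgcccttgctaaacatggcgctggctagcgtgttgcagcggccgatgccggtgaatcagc
Psmb8 (mm9 chr17:34334890-34335189, plus strand): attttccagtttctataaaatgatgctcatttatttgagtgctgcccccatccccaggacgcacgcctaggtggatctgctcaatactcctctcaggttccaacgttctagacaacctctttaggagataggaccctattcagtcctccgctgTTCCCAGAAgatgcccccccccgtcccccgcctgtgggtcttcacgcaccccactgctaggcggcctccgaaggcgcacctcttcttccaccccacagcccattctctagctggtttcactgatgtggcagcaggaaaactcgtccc
Psmb10 (mm9 chr8:108462243-108462542, minus strand): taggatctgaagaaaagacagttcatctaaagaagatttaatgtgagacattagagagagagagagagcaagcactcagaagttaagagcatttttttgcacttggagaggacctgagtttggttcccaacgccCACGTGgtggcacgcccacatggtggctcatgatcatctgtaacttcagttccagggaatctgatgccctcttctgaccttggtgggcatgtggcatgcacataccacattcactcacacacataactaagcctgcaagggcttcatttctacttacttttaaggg
Psme1 (mm9 chr14:56197081-56197380, plus strand): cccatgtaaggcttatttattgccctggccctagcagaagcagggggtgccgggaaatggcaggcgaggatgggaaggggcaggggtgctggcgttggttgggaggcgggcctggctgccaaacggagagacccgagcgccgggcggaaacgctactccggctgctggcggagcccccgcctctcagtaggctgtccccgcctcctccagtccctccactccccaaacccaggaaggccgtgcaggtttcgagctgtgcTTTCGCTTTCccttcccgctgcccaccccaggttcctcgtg
Psmd4 (mm9 chr3:94846487-94846786, minus strand): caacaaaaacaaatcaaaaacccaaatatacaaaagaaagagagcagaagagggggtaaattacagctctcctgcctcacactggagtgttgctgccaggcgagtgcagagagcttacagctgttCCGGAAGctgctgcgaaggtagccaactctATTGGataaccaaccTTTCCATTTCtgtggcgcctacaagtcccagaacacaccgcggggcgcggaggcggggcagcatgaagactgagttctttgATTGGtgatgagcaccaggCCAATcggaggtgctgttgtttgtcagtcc

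Genes that act with the proteasome were read from the same fit. In none of 4 lists did a gene pass the cutoffs in edgeR. The counts with log2 fold changes above 0 stand beside 50.5% of all loci. Those at an uncorrected p below 0.05 stand beside 4.38% of all loci for higher and 6.27% for lower levels, and separated genotypes beside 7.5 and 9.97%. Of 14 partners and assembly factors, 9 had log2 fold changes above 0, 0 had an uncorrected p below 0.05 and the median was 0.04. Pomp, which matures the core, had a log2 fold change of 0.24 (adjusted p = 0.570 from edgeR), Shfm1, a small cap subunit, 0.30 (adjusted p = 0.488) and Adrm1, a ubiquitin receptor of the cap, 0.04 (adjusted p = 0.916), of which Adrm1 was at -0.03 with RPKM and a pseudocount of 0.1. Fbxo7, a binding partner of the inhibitor Psmf1, had -0.35 (adjusted p = 0.506). Cap subunits outside the Psm naming thus spanned values from near 0 to 0.30.

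Nrf1, encoded by Nfe2l1, is the transcription factor that raises proteasome genes when degradation falls short. Of 13 genes on its axis, 10 had log2 fold changes above 0, and the median of the 13 was 0.22. Among the 10, Ddi2 was at 0.003 and Syvn1 at 0.001. Nfe2l1 reached 126 ± 14.0 CPM (SD, n = 3) in the mutant and 104.8 ± 7.19 CPM (SD, n = 3) in the wildtype libraries, without overlap. Its adjusted p was 0.497 at a log2 fold change of 0.27 in edgeR. Ngly1, an enzyme that processes Nrf1, reached 49.6 ± 0.73 and 39.8 ± 2.18 CPM (SD, n = 3 each), without overlap. Its log2 fold change was 0.32 at an adjusted p of 0.423 in edgeR. It was the only gene of the axis with an uncorrected p below 0.05. Keap1, an adaptor that directs the related factor Nrf2 to degradation, had 0.25 (adjusted p = 0.492 from edgeR). The small Maf proteins, with which Nrf1 binds DNA, had values on both sides of 0, with 0.28 for Maff, -0.37 for Mafg (adjusted p = 0.508 from edgeR) and -0.13 for Mafk, whose OgaVav-Cre libraries were all below the wildtype libraries. The Maf genes were named after their values were seen. The median of the axis was 0.026 with the immunoglobulin share as a covariate and 0.027 without OgaVav-Cre replicate 1.

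Of 14 genes that supply or carry ubiquitin, 12 had log2 fold changes above 0, with a median of 0.17, and 1 had an uncorrected p below 0.05. This was Rps27a, which encodes ubiquitin fused to a ribosomal protein, with a log2 fold change of 0.44 (edgeR adjusted p = 0.428). The polyubiquitin gene Ubb had 0.29 (adjusted p = 0.521 from edgeR) and the shuttle receptor gene Rad23b 0.29 (adjusted p = 0.520). Rps27a and Ubb did not overlap between the genotypes, whereas Rad23b did.

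Of 14 genes of MHC class I presentation and its interferon control, 11 had log2 fold changes above 0, with a median of 0.20, and 3 had an uncorrected p below 0.05. Tapbp, which loads peptides onto class I molecules, had 0.40 (edgeR adjusted p = 0.412). The class I heavy chain gene H2-D1 also had 0.40 (adjusted p = 0.412 from edgeR) and Tapbpl, a peptide editor, 0.38 (adjusted p = 0.467). In all 3 the genotypes did not overlap. Irf1, a transcription factor of the interferon response, was at -0.01 and Nlrc5, the class I transactivator, at -0.29 (adjusted p = 0.494 from edgeR), with all OgaVav-Cre libraries of Nlrc5 below the wildtype libraries. Irf1 and Nlrc5 were named after their values were seen.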

How the data were processed

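RNA-Seq of LSK cells from 3 OgaVav-Cre and 3 wildtype mice was analyzed, with groups and replicate numbers taken from the labels. The authors aligned single-end 50 bp reads to mm9, and Genomatix tallied them by locus; the submitters' processing notes also name CASAVA 1.8.2. Aligner, strand and treatment of multiply matching reads are not given in the sources used here. The deposited table holds raw read counts per locus, the RPKM that the authors derived, and results of their own DESeq2 comparison (fold changes and p-values), which were not used. For the counts of all loci, edgeR 4.0.16 in R 4.3.3 was run (filterByExpr, TMM, quasi-likelihood test, genotype as the single term), and p-values were adjusted over the 22032 loci that passed. RPKM was used for levels and, as log2 with a pseudocount of 0.1 or 1, in limma 3.58.1. DESeq2 1.42.0, limma-voom, other scalings and filters, an immunoglobulin covariate, a replicate block and leaving out each library were alternatives. Of the 48 genes, 27 overlap another locus, and 23 overlap a locus on the opposite strand. Among the 23 are Psmb5, Psmb7, Psmb10, Psmc3, Psmd4 and Psme1, which had an uncorrected edgeR p below 0.05. The test was also run on simulated data, with planted changes larger than those of the genes described here. That run does not show whether changes of the size seen here would be found. The genes and lists were chosen with earlier results of these data known. The genes named are the catalytic, activator, inhibitor, testis and thymic subunits, in each role the smallest p and the highest RPKM, the 6 smallest p in each direction, 3 genes per list by p, and Nfe2l1, Pomp and Adrm1; others are named to account for a role. Paaf1 of the partner list was not matched to a locus. The value of a further gene of the class I list is not reported here.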

Additional observations from a re-analysis of the deposited data

How the results depend on the processing

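No proteasome subunit gene passed both cutoffs in any of the 11 other analyses or the 6 fits with a library left out, and none was lower with an uncorrected p below 0.05. The number higher at that p was 9, 4 with RPKM at either pseudocount (beside 2.82 and 2.8% of all loci), and 1 to 22 with a library left out. The median log2 fold change stayed between 0.13 and 0.34, both with a wildtype library left out. With the replicate block it was 0.23, with 9 genes higher at that p and 0 called. Correlations of same-numbered libraries were -0.08, 0.26 and 0.32, and those of the other pairs ranged from -0.38 to 0.21. The labels give only a number, and 3 libraries per genotype cannot show whether the samples were paired.

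With a library left out, the median of the other activators and inhibitor ranged from 0.069 to 0.303, of the partners from -0.010 to 0.135, of the Nrf1 axis from 0.027 to 0.322 and of the class I list from 0.160 to 0.287. The Nrf1 axis was at 0.108 with RPKM and a pseudocount of 1 and at 0.026 with the immunoglobulin covariate. The lists' alternatives were chosen after seeing the data. The difference in log2 ratio of Psmb10 over Psmb7 ranged from -0.072 to 0.146 with a library left out, against 0.069 with all. With a library left out, 9 of the 47 genes changed sign, with ranges of -0.464 to 0.163 for Psma8, -0.029 to 0.224 for Psmd10, -0.155 to 0.044 for Psmd9, -0.047 to 0.107 for Psmf1, -0.032 to 0.206 for Psma3, -0.026 to 0.183 for Psmc6, -0.031 to 0.204 for Psmd5, -0.047 to 0.131 for Psmd11 and -0.046 to 0.151 for Psmd12. The partner gene Adrm1 ranged from -0.010 to 0.106. With RPKM at pseudocounts of 0.1 and 1, Psmf1 was at -0.029 and -0.025 and Adrm1 at -0.026 and -0.024. Psmb10 passed an adjusted p of 0.05 with DESeq2 alone. The causes were not tested. Transcripts of other cells, overlapping loci and 3 mice per genotype limit these values.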
